A study of Homo sapiens with 6 samples.

Results

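The FOS and JUN proteins are the core subunits of AP-1, a dimeric transcription factor. Its subunit genes were taken by symbol from the deposited gene count table, as FOS, FOSB, FOSL1, FOSL2, JUN, JUNB and JUND, which gave 7 of 36458 rows. All 7 passed the filter on low counts and were tested. The series profiled polyadenylated RNA of the human line DMS114, which was established from a small cell lung cancer, with 3 libraries from cultures given 2.5 mM β-alanine for 48 h and 3 from cultures given the same volume of vehicle (control). No genotype or other agent is named for either group. Beside the members, the table held the lineage factor YAP1 at 124 ± 4.91 CPM (SD, n = 3) in controls, while NEUROD1 and POU2F3, which mark other subtypes of this cancer, stood at 2.28 ± 0.478 and 0.278 ± 0.128 CPM. The neuroendocrine markers SYP, CHGA and UCHL1 were expressed (61.0, 19.6 and 42.6 CPM in controls) and rose after β-alanine by log2 values of 0.50, 0.56 and 0.44, NCAM1 fell (-0.67), and ENO2 (99.1 CPM in controls) was not called. Their part in the results was not tested. CPM is a gene's count relative to the library total, scaled here by TMM. Genes typical of leukocytes summed to 0.255 to 0.637 CPM over the 6 libraries and endothelial genes to 0.182 to 0.255. A list of 6 fibroblast genes summed to 1140 to 1180 CPM in controls and 908 to 1010 after β-alanine, most of it COL3A1, with COL1A2 at or near 0, and its part in the results was not tested.

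AP-1 binds DNA as a pair of basic leucine zipper (bZIP) proteins. JUN proteins pair with each other or with FOS proteins, whereas FOS proteins do not form stable pairs among themselves and need a JUN or another bZIP partner. FOS, FOSB, JUN and JUNB are immediate-early genes, whose transcripts appear within minutes of a growth factor, calcium or stress signal and are short-lived. FOSL1 and FOSL2 (the proteins Fra-1 and Fra-2) usually follow later and last longer, and JUND is present in most resting cells. In lung cancer AP-1 is studied for its part in proliferation, survival and invasion.

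After β-alanine 6 of the 7 genes were higher and none was lower. The threshold was 0.05 on Benjamini-Hochberg adjusted p-values of the quasi-likelihood test of edgeR, adjusted over all 17331 genes tested. Of all tested genes 14.1% were called higher and 13.8% lower in the same fit. The 3 libraries of each group did not overlap for the same 6 genes, a separation in the higher direction that 19.9% of all tested genes showed (39.1% in either direction). The rises ran from about 4-fold for FOS to 1.31-fold for JUN, and JUND, the most abundant of the 7, had nearly the same mean in both groups. The rises therefore covered all 4 FOS family genes and 2 of the 3 JUN family genes. The median log2 change was 1.32 over the FOS family and 0.39 over the JUN family, against -0.0032 over all tested genes. In bulk RNA a higher level in each cell and a larger share of cells with the transcript cannot be told apart. Separate cultures behind the libraries are not named in the labels. The p-values therefore measure only the spread among these libraries, which may be technical.

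The sequences before the start sites are shown for 4 members with contrasting values, FOS and FOSB as the largest rises, JUN as the smallest, and JUND as the gene that was not called. Each line gives the 150 bases before the RefSeq start, 5′ to 3′ on the gene's strand (GRCh38.p14), for FOS at chr14:75278678-75278827 (plus strand), FOSB at chr19:45467846-45467995 (plus), JUN at chr1:58784048-58784197 (minus) and JUND at chr19:18281623-18281772 (minus). Capitals mark TGACG on either strand, the core of the cAMP response element (CRE) bound by CREB and ATF proteins, and in JUN also TGACATCA, the variant AP-1 element of its promoter.
FOS: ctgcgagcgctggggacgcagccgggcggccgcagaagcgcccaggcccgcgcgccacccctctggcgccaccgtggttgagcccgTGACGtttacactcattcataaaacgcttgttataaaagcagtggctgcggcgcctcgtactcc
FOSB: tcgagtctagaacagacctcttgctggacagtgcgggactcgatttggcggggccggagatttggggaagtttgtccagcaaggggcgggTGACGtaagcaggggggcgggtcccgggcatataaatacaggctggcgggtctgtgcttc
JUN: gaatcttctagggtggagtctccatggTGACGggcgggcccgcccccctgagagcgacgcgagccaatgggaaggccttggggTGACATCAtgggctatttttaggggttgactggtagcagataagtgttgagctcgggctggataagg
JUND: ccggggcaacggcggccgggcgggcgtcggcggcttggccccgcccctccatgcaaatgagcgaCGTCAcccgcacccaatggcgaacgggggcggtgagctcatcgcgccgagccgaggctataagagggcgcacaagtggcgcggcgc

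Promoter windows were in the RefSeq table for 6 of the 7 genes, FOSL1 being the one not matched. Within 250 bases before the start, TGACG on either strand was found in 6 of 6, against 21.66% of 27305 promoters of the same length. This core was chosen for the search after the sequences had been read, so the count is a description. The promoters it is set against were not matched for GC content. Counted back from the start, its first base lay at 64 bases in FOS, at 60 in FOSB and at 66 and 201 in FOSL2. In JUN it lay at 123, in JUNB at 137, and in JUND at 86 and as part of the full palindrome TGACGTCA at 200 bases. The full palindrome was found in 1 of the 6, against 1.77% of all promoters, and TGACATCA in 1 of the 6 (JUN, at 67 bases), against 2.45%. TGACTCA, the classical AP-1 element (searched on both strands), and the CArG box bound by serum response factor were found in 0 of 6, against 4.16% and 1.14%. The window ends 250 bases before the start, so elements farther out were not searched. GENCODE 29 places the first starts of FOS, FOSL2 and JUN farther upstream than RefSeq does, so that the windows of FOSL2 and JUN lie wholly inside the GENCODE genes. TATAAA was found in FOS, FOSB and JUNB (11.13% of all promoters), CCAAT in JUN, JUNB and JUND (33.04%), and GGGCGG, the GC box, in 5 of 6 (42.31%). TGACG lies within TGACGTCA, so these matches overlap. JUND, which was not called, held the TGACG core, as did the 5 genes that rose and had a window to search.

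**Figure D1:**
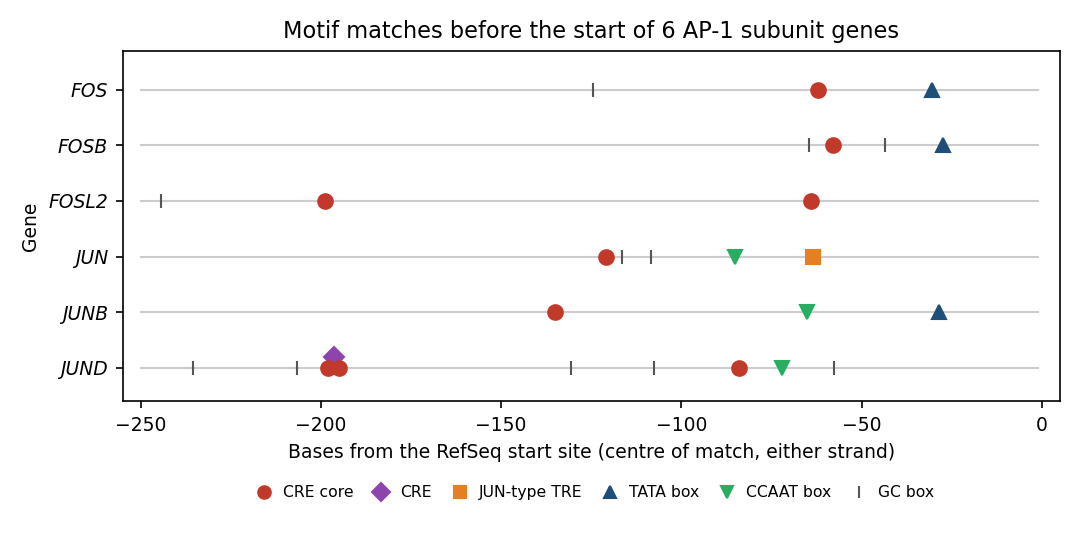
Matches to 6 motifs (symbols; CRE core is TGACG) on either strand in the 250 bases before the RefSeq start of 6 AP-1 subunit genes; the x axis is the distance of a match's centre from the start in bases. FOS, FOSB and FOSL2 carry a core at 60 to 66 bases before the start (FOSL2 also at 201), and JUND carries it at 86 and 200 bases.

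FOS, on chromosome 14 from 75278828 to 75282230 (GRCh38.p14, RefSeq), encodes c-Fos, the first-described partner of c-Jun. It had 0.649, 0.819 and 1.12 CPM in control libraries 1, 2 and 3, and 2.71, 4.01 and 3.66 CPM in β-alanine libraries 1, 2 and 3. The groups did not overlap, and the lowest treated library stood well above the highest control. The mean went from 0.863 ± 0.240 to 3.46 ± 0.670 CPM (SD, n = 3 per group). On the log2 scale this was a rise of 2.03 ± 0.23 (SE; 95% interval 1.56 to 2.50; adjusted p = 1.46e-06). By size this was the 8th-largest rise of 17331. The controls rest on 12, 18 and 22 counts, so the fold itself is less precise than its sign.

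FOSB lies on chromosome 19 from 45467996 to 45475179 and encodes FosB and, by splicing, the stable short form ΔFosB, which a count per gene does not separate. Controls had 1.57, 1.46 and 2.60 CPM and β-alanine libraries 3.27, 5.62 and 5.09 CPM. The groups were apart, with control 3 and β-alanine 1 the nearest to each other. FOSB rose by a log2 of 1.37 ± 0.22 (SE; 95% interval 0.90 to 1.84; adjusted p = 0.000216 in edgeR), from 1.88 ± 0.631 to 4.66 ± 1.23 CPM. Without control 3 the log2 change was 1.67.

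FOSL1, on chromosome 11 from 65892049 to 65900545, encodes Fra-1, which lacks the transactivating end of c-Fos. It was the least abundant member, with 8, 12 and 9 counts in the controls and 14, 32 and 43 after β-alanine. These counts correspond to 0.433, 0.546 and 0.459 CPM against 0.975, 1.17 and 1.29 CPM, with no overlap. The log2 rise was 1.28 ± 0.30 (SE; 95% interval 0.65 to 1.90; adjusted p = 0.0030 in edgeR), the widest interval among the members that rose. A stricter filter on low counts removed FOSL1, and DESeq2's own filter gave it no adjusted p.

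FOSL2, on chromosome 2 from 28392858 to 28417317, encodes Fra-2 and was the most abundant FOS family gene. It read 6.27, 5.64 and 6.43 CPM in controls and 8.35, 12.5 and 11.8 CPM after β-alanine. The controls lay close together (a coefficient of variation of 6.81%), and all treated libraries were above them. FOSL2 rose from 6.11 ± 0.416 to 10.9 ± 2.21 CPM, a log2 of 0.87 ± 0.13 (SE; adjusted p = 4.62e-05 in edgeR).

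JUNB, on chromosome 19 from 12791486 to 12793315, encodes a JUN protein that often opposes c-Jun in proliferation. Controls had 32.98, 36.7 and 29.06 CPM and β-alanine libraries 47.9, 62.2 and 65.2 CPM, with no overlap. It rose by a log2 of 0.84 ± 0.14 (SE; 95% interval 0.51 to 1.18; adjusted p = 0.0052 in edgeR). In CPM this was the largest gain of any member, from 32.9 ± 3.82 to 58.4 ± 9.24 (SD, n = 3 per group). JUNB shares 259 exon bases with HOOK2 on the other strand (GENCODE 29), and no source says that strand was used in counting, so reads there cannot be assigned. HOOK2 itself rose from 22.8 ± 1.95 to 27.9 ± 0.855 CPM, a log2 of 0.29 ± 0.07 (adjusted p = 0.0048 in edgeR), and its part in the JUNB count was not tested.

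JUN, on chromosome 1 from 58780791 to 58784047, encodes c-Jun, the subunit activated by the JNK kinases. Its levels were 18.9, 24.2 and 20.9 CPM in controls and 24.9, 30.8 and 28.0 CPM after β-alanine. The groups were separated by a narrow margin, between control 2 and β-alanine 1. The rise was the smallest of those called, a log2 of 0.39 ± 0.09 (SE; 95% interval 0.21 to 0.58; adjusted p = 0.0027 in edgeR), from 21.4 ± 2.69 to 27.9 ± 2.93 CPM.

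JUND, on chromosome 19 from 18279694 to 18281622, encodes JunD, the JUN protein found in unstimulated cells. It had 99.5, 88.4 and 69.7 CPM in control libraries 1, 2 and 3 and 98.1, 86.4 and 74.0 CPM in β-alanine libraries 1, 2 and 3. The groups overlapped almost entirely, and libraries with the same number were close in level, those numbered 1 being the highest in both groups and those numbered 3 the lowest. The means were 85.8 ± 15.1 and 86.2 ± 12.0 CPM, a log2 change of -0.0082 ± 0.18 (SE; 95% interval -0.49 to 0.47; adjusted p = 0.98 in edgeR). In this fit, which had no block on the replicate number, changes within that interval were not detectable. JUND also has the highest GC content of the 7, 69.7% in its longest transcript against 52.6% to 64.9% for the others, and with a GC correction its log2 change was 0.11 (adjusted p = 0.624 in edgeR). With that correction and a block on the replicate number it was 0.12 and called (adjusted p = 0.0408 in edgeR).

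**Figure D2:**
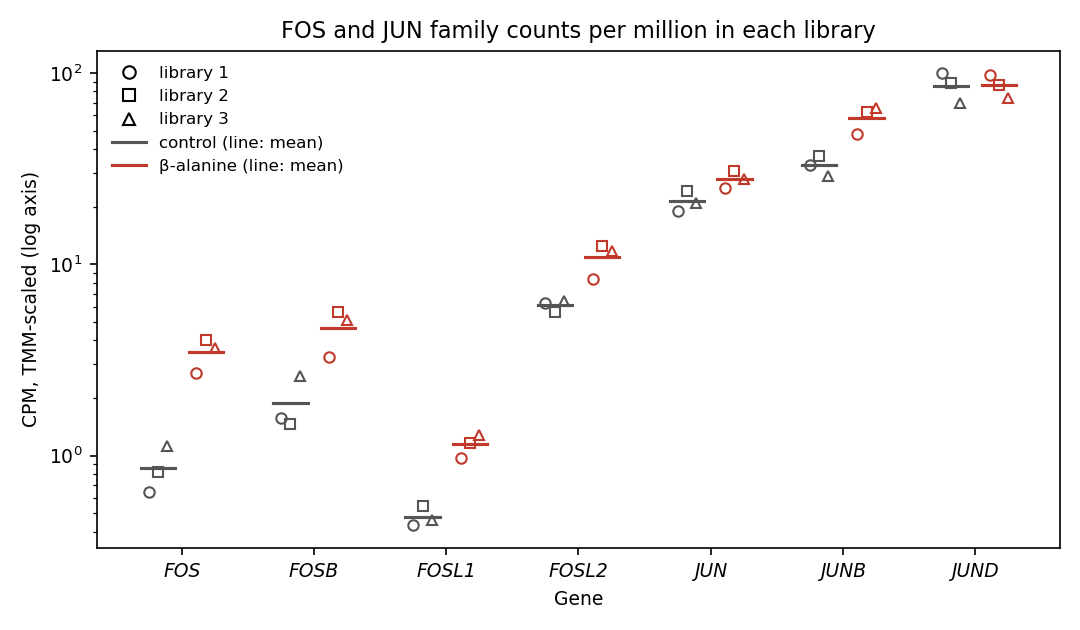
CPM (TMM-scaled, log axis) of the 7 genes in each library, controls in grey and β-alanine in red; symbols give the library number and lines the group means. Control and treated points are separate for all genes but JUND, whose treated libraries (74.0 to 98.1 CPM) lie inside the range of the controls (69.7 to 99.5).

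β-alanine library 1 had the lowest value of the 3 treated libraries for each of the 6 genes that rose. Relative to the control mean it stood at log2 values of 1.65 for FOS, 0.80 for FOSB, 1.02 for FOSL1, 0.45 for FOSL2, 0.54 for JUNB and 0.22 for JUN. In library 2 these values were 2.22, 1.58, 1.28, 1.03, 0.92 and 0.53, and in library 3 they were 2.08, 1.44, 1.43, 0.94, 0.98 and 0.39. Library 1 was also the shallowest, with 14433801 counts against 27324339 and 32909568, and the part of depth in this order was not tested. Controls had 18814876 to 22072654 counts. Leaving out library 1 raised the log2 changes to 2.13 for FOS and 0.95 for JUNB, and the same 6 genes were called. Intervals of the changes of FOS and JUN did not overlap (1.56 to 2.50 against 0.21 to 0.58), nor did those of FOS and FOSL2 (0.60 to 1.14). Those of FOSB, FOSL1 and FOSL2 overlapped. The difference between members was not tested.

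**Figure D3:**
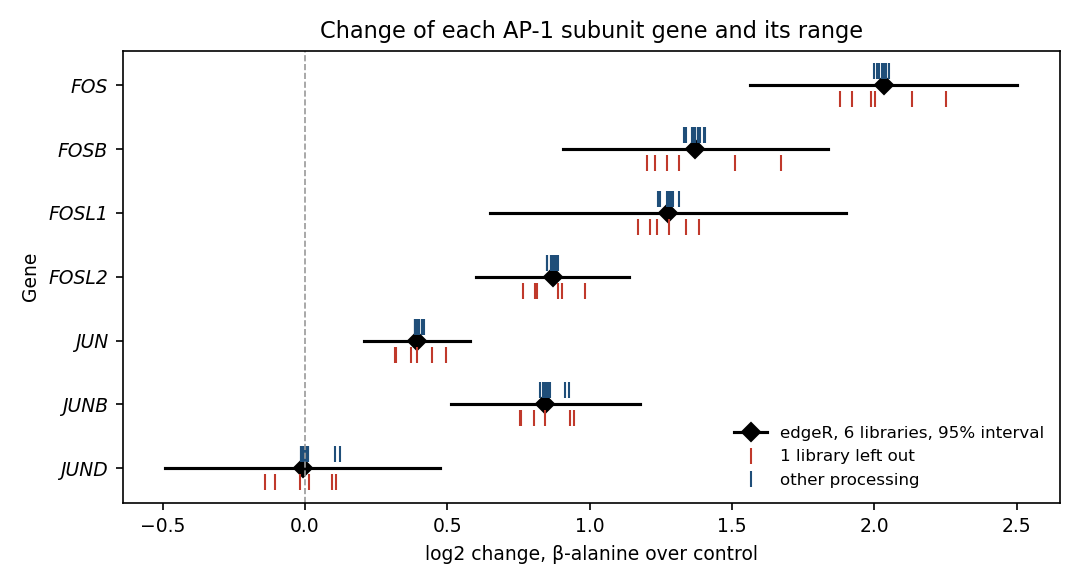
The log2 change of each gene, β-alanine over control, with its 95% interval in edgeR (black) and the values with 1 library left out (red ticks) or with other processing (blue ticks). All ticks of the 6 genes that rose lie above 0, the lowest being 0.32 for JUN, and those of JUND lie on both sides of 0.

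To compare levels between genes, CPM was divided by the length of each gene's merged exons in kilobases (GENCODE 29). In controls JUND led with 46.1 ± 8.09 CPM per kb, followed by JUNB with 18.1 ± 2.10 and JUN with 6.03 ± 0.759 (SD, n = 3). FOSL2 came next with 0.854 ± 0.0581, then FOSB with 0.338 ± 0.114, FOS with 0.266 ± 0.0740 and FOSL1 with 0.254 ± 0.0314. The ranges of neighbours in this order were apart from JUND down to FOSB. FOSB and FOS overlapped, as did FOS and FOSL1. Within libraries FOSB was above FOS in 3 of 3 controls, and FOS was above FOSL1 in 1 of 3. These differences in level were not tested. JUND stood at percentile 95.3 of the 16645 tested genes with a length, JUNB at 84.8 and JUN at 59.3, while the FOS family genes stood at percentiles 5.9 to 19.5. At baseline the JUN family thus made up nearly all of the summed AP-1 subunit transcript level. JUND held 63.8% ± 3.72 of it, JUNB 25.2% ± 1.86, JUN 8.49% ± 1.49 and the FOS family 2.44% ± 0.656 (SD, n = 3). Without division by length the FOS family share was 6.36% in controls and 10.4% after β-alanine.

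After β-alanine the summed level per kb was 89.1, 93.9 and 87.8 in libraries 1, 2 and 3, against 78.5, 76.0 and 61.2 in controls. JUND still led with 46.2 ± 6.46 CPM per kb, but JUNB followed at 32.1 ± 5.08, so that JUND was 1.44 times JUNB in place of 2.55 times. The JUND share was 59.1%, 49.4% and 45.2% in treated libraries, and 68.1%, 62.4% and 61.1% in controls. JUNB held 29.5%, 36.4% and 40.8% after β-alanine against 23.1%, 26.5% and 26.1%. For both genes the shares of the groups did not overlap, with treated library 1 nearest to the controls. The FOS family share was 3.49%, 4.92% and 4.98% against 2.02%, 2.09% and 3.19%. Within the FOS family FOSL2 kept the highest level (1.52 ± 0.309 CPM per kb), and FOS, at 1.07 ± 0.207, came before FOSB at 0.839 ± 0.222. The ranges of these neighbours overlapped. These shares are of transcripts, not of proteins or dimers, and carry no test.

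**Figure D4:**
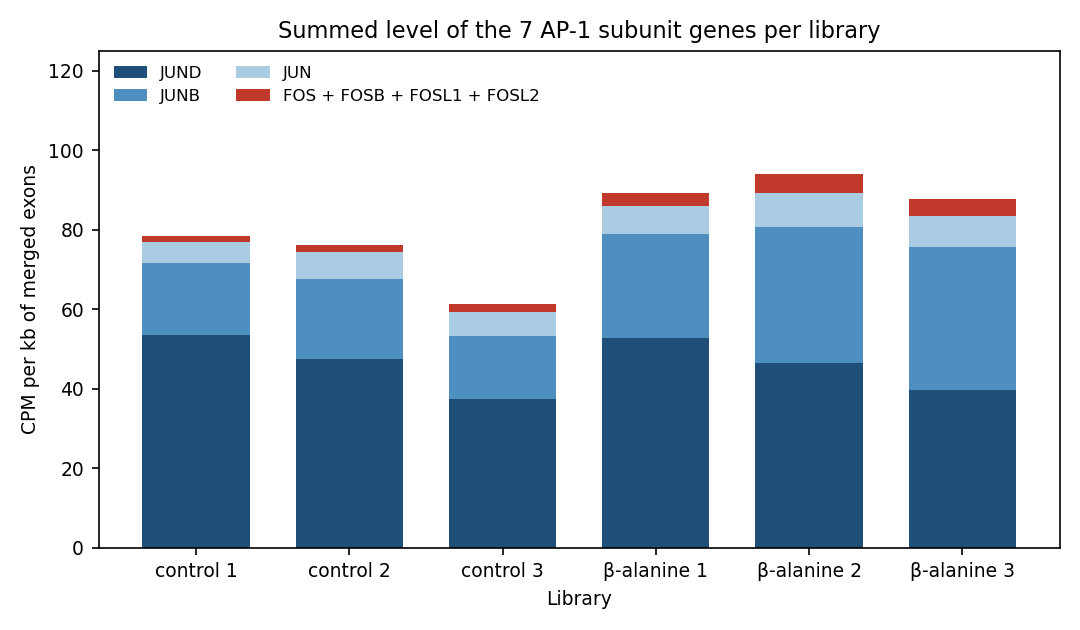
Summed CPM per kb of merged exons of the 7 genes in each library, stacked by gene with the 4 FOS family genes together. JUND forms the largest part in every library, the JUNB part is larger in the β-alanine libraries, and the FOS family part goes from 2.44% to 4.46% of the sum on average (6.36% to 10.4% without division by length).

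Of 14 genes for bZIP proteins that pair with FOS or JUN proteins, 13 were tested and BATF was not in the count table. Of these 13, 6 rose and 0 fell, against 14.1% and 13.8% of all tested genes. The median log2 change was 0.15. MAFF, a small MAF protein without an activation domain, had 6.53 ± 0.356 CPM in controls and 16.2 ± 3.38 after β-alanine, a log2 rise of 1.35 ± 0.13 (SE). ATF3, a stress-induced partner of JUN proteins, went from 0.712 ± 0.135 to 2.59 ± 0.980 CPM and rose by 1.94 ± 0.28. The small MAF genes MAFG and MAFK rose by 0.34 ± 0.05 and 0.37 ± 0.08. The remaining rises were those of JDP2, a repressor that dimerises with JUN (0.53 ± 0.13), and ATF7 (0.15 ± 0.05). The call for ATF7 was lost in edgeR without β-alanine library 2 (adjusted p = 0.128), control 1 (0.0802) or control 2 (0.138). With DESeq2 on all libraries ATF7 was not called either (adjusted p = 0.0515). ATF2, the JUN partner at CRE-type sites, had 57.8 ± 2.16 and 59.8 ± 1.80 CPM and was not called.

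The median log2 change was 0.074 over 13 genes for kinases that act on the subunits or lie just above them. Of these genes 3 rose and 0 fell, against 14.1% and 13.8% of all tested genes. They were RPS6KA3 (0.34 ± 0.06, SE) and RPS6KA1 (0.17 ± 0.05), which encode RSK kinases that phosphorylate c-Fos, and MAPK3 (0.24 ± 0.07), which encodes ERK1. The JNK genes MAPK8 and MAPK9 changed by 0.069 ± 0.05 and -0.055 ± 0.05 and were not called. Without control 2 only 1 of the 13 was called, with adjusted p-values in edgeR of 0.0588 for MAPK3 and 0.113 for RPS6KA1. MAPK3 also lost its call without β-alanine 3 (0.0983), and RPS6KA1 without β-alanine 2 (0.113), β-alanine 3 (0.0788) or control 3 (0.103). RPS6KA1 was also not called with DESeq2 on all libraries (adjusted p = 0.0645).

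The median log2 change was 0.10 over 12 genes for transcription factors known to act on the FOS and JUN promoters. Of these genes 5 rose and 1 fell, against 14.1% and 13.8% of all tested genes. With DESeq2 3 of the 12 rose. CREB1, which binds the CRE, fell from 56.5 ± 3.54 to 42.5 ± 1.05 CPM, a log2 of -0.42 ± 0.06 (SE; adjusted p = 1.21e-05 in edgeR), lower in 3 of 3 libraries. Its relative ATF1, which binds the same element, rose from 50.5 ± 3.13 to 62.6 ± 2.60 CPM (0.32 ± 0.05). MEF2A and STAT3 rose by 0.24 ± 0.04 and 0.25 ± 0.05. Serum response factor itself (SRF) had 92.2 ± 7.40 and 98.1 ± 4.08 CPM and was not called. Its cofactor genes ELK1 (0.13 ± 0.04) and ELK4 (0.15 ± 0.05) were called on all 6 libraries, but 3 of the 12 genes rose in place of 5 without β-alanine 2, β-alanine 3, control 1 or control 2. In these 4 fits the adjusted p-values in edgeR were 0.062 to 0.102 for ELK1 and 0.135 to 0.226 for ELK4, and that of ELK1 was 0.118 without control 3.

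Of 13 genes for turnover of the FOS and JUN transcripts and proteins, 4 rose and 1 fell, against 14.1% and 13.8% of all tested genes, with a median log2 change of 0.013. ZFP36 and ZFP36L1 encode proteins that bind AU-rich elements, as in the FOS transcript, and promote decay. ZFP36 had 18.3 ± 1.41 CPM in controls and 38.4 ± 8.10 after β-alanine, a rise of 1.10 ± 0.16 (SE; adjusted p = 0.0036 in edgeR). ZFP36L1 went from 12.6 ± 0.692 to 20.5 ± 2.01 CPM, a rise of 0.72 ± 0.09. ITCH, a ubiquitin ligase for JUN proteins, rose by 0.19 ± 0.05, and UBR1 by 0.26 ± 0.06. KHSRP, another decay factor, was named after its value was seen as the gene that fell (-0.17 ± 0.04), and its call was lost without control 2 (adjusted p = 0.0604 in edgeR), while 4 genes fell without β-alanine 1. FBXW7, the ligase adaptor that marks phosphorylated c-Jun, changed by -0.19 ± 0.07 and was not called.

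Of 28 genes described in other systems as AP-1 targets, 26 were in the table and 18 were tested, of which 4 rose and 2 fell, with a median log2 change of 0.020. The shares over all tested genes were 14.1% and 13.8%. HMOX1, heme oxygenase 1, went from 8.09 ± 1.06 to 13.7 ± 1.79 CPM (0.78 ± 0.11, SE) and the keratin gene KRT18 from 8.11 ± 0.652 to 11.9 ± 1.36 CPM (0.58 ± 0.11). CD44, a hyaluronan receptor, and CCND1, cyclin D1, were lower, by log2 values of -0.21 ± 0.04 and -0.16 ± 0.03. The other 2 rises were those of the collagenase gene MMP1 (from 0.555 ± 0.181 to 1.29 ± 0.411 CPM, 1.29 ± 0.32) and of PLAU, urokinase (0.37 ± 0.12), both named after their values were seen. MMP1 rested on 14, 11 and 8 counts in controls 1, 2 and 3 and on 12, 45 and 46 in β-alanine libraries 1, 2 and 3. PLAU was not called in edgeR without β-alanine 2 or 3 (adjusted p = 0.156 and 0.16) or without controls 1, 2 or 3 (0.0703, 0.106 and 0.0931). With DESeq2 on all libraries PLAU was also not called (adjusted p = 0.0705), and 2 of the listed targets rose in place of 4. MMP10, stromelysin 2, also named after its value was seen, was abundant with 424 ± 8.06 and 413 ± 13.2 CPM and was not called (adjusted p = 0.49 in edgeR). IL6, CXCL8, AREG and EREG each had 4 or fewer counts in every library and were not tested. Some genes named in these lists share exon bases with a gene on the other strand, so their counts are uncertain. They are ATF2, ATF7, MAFG, MAFK, JDP2, CREB1, MEF2A, ELK4, FBXW7, KRT18, CD44, CCND1, MMP1, PLAU and IL6. With a gene on the same strand, ATF2 shares 45 exon bases, ATF7 1456, MAFG 105 and KHSRP 22, which makes these counts uncertain too.

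**Figure D5:**
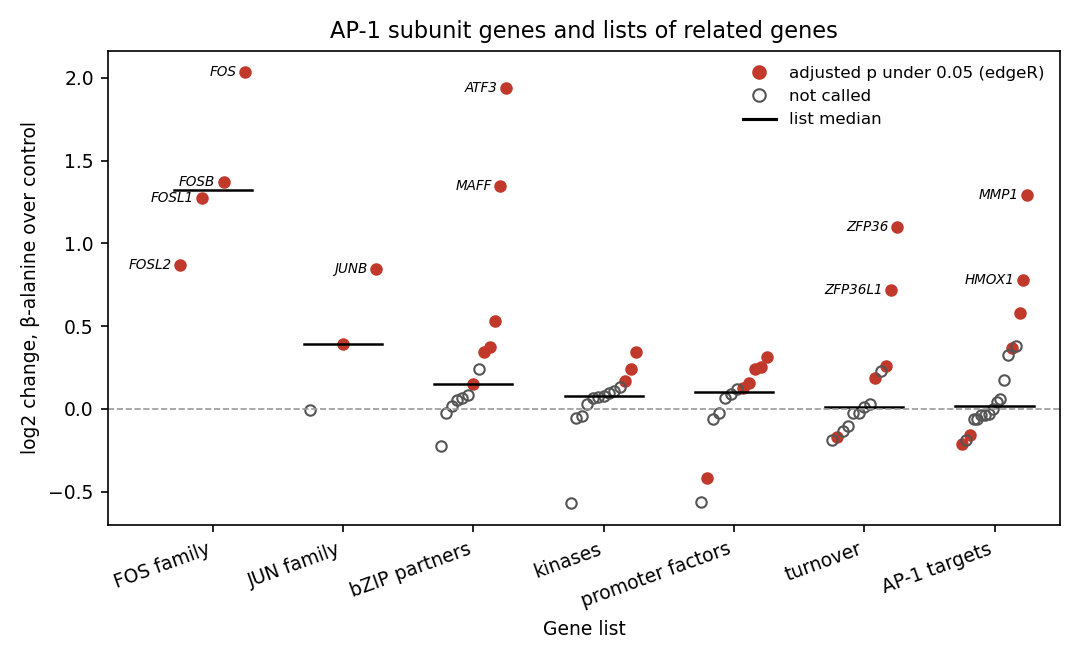
The log2 change, β-alanine over control, of each tested gene in the FOS and JUN families and in 5 lists of related genes; red points passed an adjusted p of 0.05 in edgeR, open points did not, and lines are list medians. FOS (2.03) and ATF3 (1.94) are the highest points, and the medians of the kinase, turnover and target lists lie near 0.

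The genes whose levels ran most like a member's over the 6 libraries, by Pearson's r of log2 CPM among 13845 tested genes, are given as a description, since all points come from the same 6 libraries. Those most like the 6 members that rose each changed less than that member. For FOS they were PDHX, LIG3 and CRIPT (r = 0.9992, 0.9992 and 0.9985), with log2 changes of 0.26, 0.33 and 0.29. FOSB was matched by HOXC10, TESK2 and DOCK6, FOSL1 by PPP1R15A, ADGRE5 and SLC52A2, and FOSL2 by UFC1, YPEL2 and VTA1. For JUN they were CD40, EIF3J-DT and CRLF3, and for JUNB B4GALT4, MYO1C and SLC35C1. JUND was matched by BASP1, H1FX-AS1 and BLOC1S3 (r = 0.9892, 0.988 and 0.9839), whose log2 changes were 0.026, -0.026 and -0.0040.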

How the data were processed

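Polyadenylated RNA of 6 DMS114 libraries was measured, with groups and replicate numbers read from their titles. The values deposited by the authors are unnormalised read counts for each gene symbol, made, per the submitters' processing notes, with Trimmomatic 0.39, STAR 2.7.3a and featureCounts 2.0.1 on GRCh38. Settings, the annotation and any use of strand were not found in these notes. Totals ran from 14433801 to 32909568 counts per library.

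Genes passing filterByExpr (17331) were tested with edgeR 4.0.16 (quasi-likelihood, robust, TMM, two-sided, no covariate, Benjamini-Hochberg, threshold 0.05) in R 4.3.3. SEs derive from the change and its F statistic. The common dispersion was 0.00189. On simulated counts (17120 genes) 54% of genes changed 1.25-fold and 94% of those changed 2-fold were recovered. Of 176 calls 16 were false, a share above the threshold of 0.05. The changes, 50 at each fold, were placed only in genes of higher level, so the rates do not cover genes as low as FOSL1.

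Members and lists were chosen with earlier results of these data known. Named were all members, up to 4 listed genes with the smallest p among those called, and the 3 genes most correlated with each member. Other listed genes were named after their values were seen. Levels per kb used merged exons of GENCODE 29, matched by symbol for 96.04% of tested genes. Motifs were searched in RefSeq promoters (GRCh38.p14). Alternatives were other scaling, filters, tools (DESeq2 1.42.0, limma-voom 3.58.1), thresholds, lengths, a replicate block and leaving out libraries. A GC correction was added after seeing the data. Figures used matplotlib 3.10.9.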

Additional observations from a re-analysis of the deposited data

How the results depend on the processing

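Under all alternatives that gave a value (18, or 16 for FOSL1), the 6 called members kept their direction and their call, with log2 changes of 1.88 to 2.25 for FOS, 1.201 to 1.67 for FOSB, 1.17 to 1.38 for FOSL1, 0.76 to 0.99 for FOSL2, 0.32 to 0.50 for JUN and 0.76 to 0.95 for JUNB. The count of members called was 5 with the stricter filter and with DESeq2, where FOSL1 gave no adjusted value. The log2 change of JUND, near 0, turned positive with library totals (0.0091), the replicate block (0.011), DESeq2 (0.0022), the GC correction (0.107) and the GC correction with the replicate block (0.123, adjusted p = 0.0408 in edgeR), and ran from -0.14 to 0.109 with 1 library left out; the cause was not tested. Same-numbered libraries correlated at 0.102, -0.002 and 0.174 in their deviations from the group means. Libraries 1 and 3 correlated best with their own number, against -0.162 and -0.112 between numbers 1 and 3. With 3 libraries per group these values cannot decide whether the numbers pair the samples. The block moved the calls over all genes from 2441 higher and 2389 lower to 2564 and 2608.

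At an adjusted p of 0.01, 1454 genes were higher and 1391 lower, and with 1 library left out 1501 to 3204 and 1473 to 3294, the lowest counts being without β-alanine 2 (1501 and 1473) and control 2 (1570 and 1488). With DESeq2, 3 promoter factors and 2 AP-1 targets rose. With 1 library left out, 1 to 3 kinases and 3 to 5 promoter factors rose and 0 to 4 turnover genes fell. Without division by length the FOS family share was 6.36% in controls and 10.4% after β-alanine, and the JUND share in controls 57.2%; with the longest transcript the treated FOS family share was 5.62%. The control order of levels held for 7 genes in the other alternatives, and for 5 without control 3, where FOSL1 passed FOS. Depth limits FOS and FOSL1 most, with 8 to 22 counts in the controls.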
